A study of Mus musculus with 5 samples.

Results

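The genes described here are 30 genes of cholesterol and fatty acid synthesis and of its control by sterols, measured in cultured mouse cardiac fibroblasts (CF) by SLAMseq. They were chosen by name from the deposited tables, which hold 20365 gene names on 40428 distinct 3′ UTR intervals, and the 30 genes take 47 of these intervals. Of the 30 genes, 18 encode enzymes of sterol synthesis, 6 encode enzymes of fatty acid synthesis, 5 encode regulators of the pathway and 1, *Stard4*, encodes a sterol carrier. Where a gene had several intervals, as 14 of the 30 did, the one with the most labeled reads, by mean CPM, was used.

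CF were obtained by collagenase perfusion of hearts of healthy adult male C57Bl/6J wildtype mice and cultured to confluency, and the study's isolation protocol, which it writes out for operated hearts, includes magnetic removal of CD31+ (endothelial) and CD45+ (immune) cells. The labeled group (n = 3 libraries) received 0.1 mM 4-thiouridine (S4U) for 12 h, and the unlabeled group (n = 2 libraries) was kept for 12 h without S4U. RNA of both groups was alkylated with iodoacetamide, so that S4U built into new RNA is read as C instead of T, and was sequenced from its 3′ end with unique molecular identifiers. No library came from an infarcted heart, and the cells had left the heart and grown on plastic. The study speaks of 3 CF preparations and of negative control cells kept in parallel without S4U. The labels do not say which libraries came from the same preparation, so p-values measure the spread between these libraries.

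Cells build cholesterol from acetyl-CoA through mevalonate, farnesyl diphosphate, squalene and lanosterol, and they build fatty acids from acetyl-CoA and malonyl-CoA. Both branches are driven by the membrane-bound transcription factors SREBP1 and SREBP2, the products of *Srebf1* and *Srebf2*. SCAP escorts SREBP from the endoplasmic reticulum to the Golgi, where it is cut and released to the nucleus, while INSIG1 and INSIG2 hold SCAP back when sterols are plentiful.

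The 5 libraries differed in depth, with 506045 (labeled replicate 3) to 1843033 (unlabeled replicate 1) deduplicated reads on the intervals used. The T>C conversion rate, the conversions divided by all covered Ts, was 0.0353, 0.0358 and 0.0356 over all intervals of the labeled libraries. It was 0.00111 and 0.000652 in the unlabeled libraries, and the exact one-sided permutation p of 0.1 is the smallest that 3 libraries against 2 can give. Labeled replicate 1 stood apart from the other labeled libraries, and both unlabeled libraries differed from each other. The chi-square of the read counts per degree of freedom was 13.4 and 8.79 for labeled replicate 1 against labeled replicates 2 and 3, 1.81 between labeled replicates 2 and 3, and 13.2 between both unlabeled libraries. A mean level of 10 CPM in the labeled libraries was exceeded by 8 of 8 fibroblast markers, 5 of 7 macrophage markers, 3 of 5 endothelial markers, 1 of 5 smooth muscle and pericyte markers (*Cnn1*), 1 of 5 adipocyte markers (*Fabp4*) and 0 of 6 cardiomyocyte markers. The markers *Vwf*, *Myh11*, *Myl2*, *Plin1*, *Cidec* and *Lep* were at 0 there.

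Because the genes share their regulators, the 250 bases before and 50 bases after each start site were searched for the letters that SREBP and its partners NF-Y and Sp1 are known to bind. RefSeq promoters of build GRCm38.p6 were given for 24 of the 30 genes, and those of *Fdps*, *Fdft1*, *Sqle*, *Scd1*, *Scd2* and *Stard4* were missing. The NF-Y letters CCAAT (or ATTGG on the other strand) occurred in 20 of the 24 genes, in 14 of 15 sterol enzymes, 2 of 4 fatty acid enzymes and 4 of 5 regulators, against 41.1% of 27025 genes in the same table. The Sp1 letters GGGCGG (or CCGCCC) also occurred in 20 of the 24 genes, in 14 of 15 sterol enzymes, 1 of 4 fatty acid enzymes and 5 of 5 regulators, against 38.2% of all genes. *Hmgcs1* alone held a sterol regulatory element in the form TCACNCCAC (or GTGGNGTGA), which 1.44% of all genes hold. With up to 1 base different from TCACCCCAC (or GTGGGGTGA), 5 of the 24 genes matched, against 11.1% of all genes. The palindrome TCACGTGA was found in none of the 24 and in 1.12% of all genes. A match is a description of the letters and not a site shown to be bound.

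The stretches that carry these letters are shown as 30 bases, 5′ to 3′ on the gene's strand, for the 5 genes with the sterol element or a near match and for 6 genes with an NF-Y match. Capitals mark the match, and coordinates are of GRCm38.p6, a build other than that of the tables.
*Hmgcs1* sterol element, chr13:119690204-119690233, plus strand: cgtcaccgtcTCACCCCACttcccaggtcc
*Hsd17b7* near match, chr1:169969303-169969332, minus strand: tcggcctatcTCACCTCACccggtctgggc
*Nsdhl* near match, chrX:72918306-72918335, plus strand: gcacttaccaTCACCCAACggactctgcca
*Acat2* near match, chr17:12960888-12960917, minus strand: tggatcctccACACCCCACcctaacccgac
*Srebf2* near match, chr15:82147097-82147126, plus strand: tgacgcaccaTCACCCCATgagccgcttcg
*Hmgcs1* NF-Y match, chr13:119690294-119690323, plus strand: tccccgcctctcATTGGctgaaagcggatc
*Msmo1* NF-Y match, chr8:64733616-64733645, minus strand: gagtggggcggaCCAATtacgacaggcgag
*Sc5d* NF-Y match, chr9:42264307-42264336, minus strand: cgccggctgctgATTGGccggctgcctgca
*Lss* NF-Y match, chr10:76531531-76531560, plus strand: ggtgatgctctgATTGGccgagctcgcatc
*Fasn* NF-Y match, chr11:120824592-120824621, minus strand: cggcctcggtgtCCAATtggtttcgatgtg
*Insig1* NF-Y match, chr5:28071184-28071213, plus strand: cgccctcctcccATTGGctccggcggcctc

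All 30 genes had reads in every library. Their levels are given as CPM, here relative to all reads counted on 1 interval per gene. The libraries read each transcript about once at its 3′ end, so levels were compared between genes without dividing by length. Of 29 genes that passed the filter on low counts, 20 had a mean level above the median of all 9807 genes that passed it, 38.6 CPM. The median was 49.9 CPM over the 24 enzymes and 68.4 CPM over the 5 regulators.

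The fatty acid desaturases *Scd1* and *Scd2*, which place the first double bond in saturated fatty acids, had the highest mean levels in the labeled libraries. *Scd1* (ENSMUSG00000037071.5, chr19:44382889-44386357 of GRCm39, minus strand) reached 306, 223 and 227 CPM in labeled replicates 1, 2 and 3, and 283 and 226 CPM in unlabeled replicates 1 and 2. *Scd2* (ENSMUSG00000025203.8, chr19:44291640-44295303, plus strand) reached 238, 208 and 237 CPM against 326 and 342 CPM. For *Scd1* the groups overlapped, whereas every labeled library was below both unlabeled libraries for *Scd2*. The interval of *Scd2* also holds the microRNA gene *Mir5114* on the same strand.

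Next by mean level in the labeled libraries stood *Sc5d*, the lathosterol oxidase of the last steps to cholesterol (ENSMUSG00000032018.16, chr9:42162888-42166637, minus strand), with 269, 158 and 160 CPM in the labeled and 374 and 234 CPM in the unlabeled libraries. *Hmgcs1*, the cytosolic HMG-CoA synthase that feeds the mevalonate pathway (ENSMUSG00000093930.4, chr13:120168015-120169796, plus strand), had 171, 168 and 196 CPM against 329 and 276 CPM. *Srebf2* (ENSMUSG00000022463.10, chr15:82088119-82089580, plus strand) had 230, 121 and 138 CPM against 311 and 122 CPM. The libraries of replicate 1 were the highest of their group for *Sc5d* and *Srebf2*, and not for labeled *Hmgcs1*. Mean levels in the labeled libraries were 252 ± 47.1 (SD, n = 3) for *Scd1*, 228 ± 16.8 for *Scd2*, 196 ± 63.5 for *Sc5d*, 178 ± 15.2 for *Hmgcs1* and 163 ± 58.6 for *Srebf2*. Neighbours in this order differed by less than the larger of their SDs. The order was another in the unlabeled libraries, where mean levels were 334 CPM for *Scd2*, 304 for *Sc5d*, 303 for *Hmgcs1*, 255 for *Scd1* and 217 for *Srebf2*.

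Within the mevalonate arm, *Hmgcs1* stood far above the other 6 genes, whose mean levels ran from 9.70 CPM for the isomerase *Idi1* to 40.0 CPM for the thiolase *Acat2*. Processed pseudogenes of *Idi1* are annotated, and reads shared with them could not be told apart. From squalene to lanosterol, the squalene epoxidase *Sqle* had 87.7 ± 21.4 CPM, the cyclase *Lss* 36.3 ± 3.99 CPM and the squalene synthase *Fdft1* 11.03 ± 1.31 CPM. Of the 8 enzymes after lanosterol, *Cyp51*, *Hsd17b7* and *Msmo1* lay between 140 and 149 CPM, and the sterol reductases *Dhcr7* and *Tm7sf2* were lowest at 14.1 and 3.10 CPM. *Tm7sf2* rested on so few reads that it was not tested for a difference. Of the fatty acid enzymes, the acetyl-CoA carboxylase *Acaca* was lowest at 14.0 ± 9.47 CPM, with 3.17 CPM in labeled replicate 1 against 20.9 and 17.8 CPM in labeled replicates 2 and 3. The fatty acid synthase *Fasn* had 54.5 ± 16.5 CPM and the ATP citrate lyase *Acly* 71.2 ± 30.4 CPM.

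**Figure D1:**
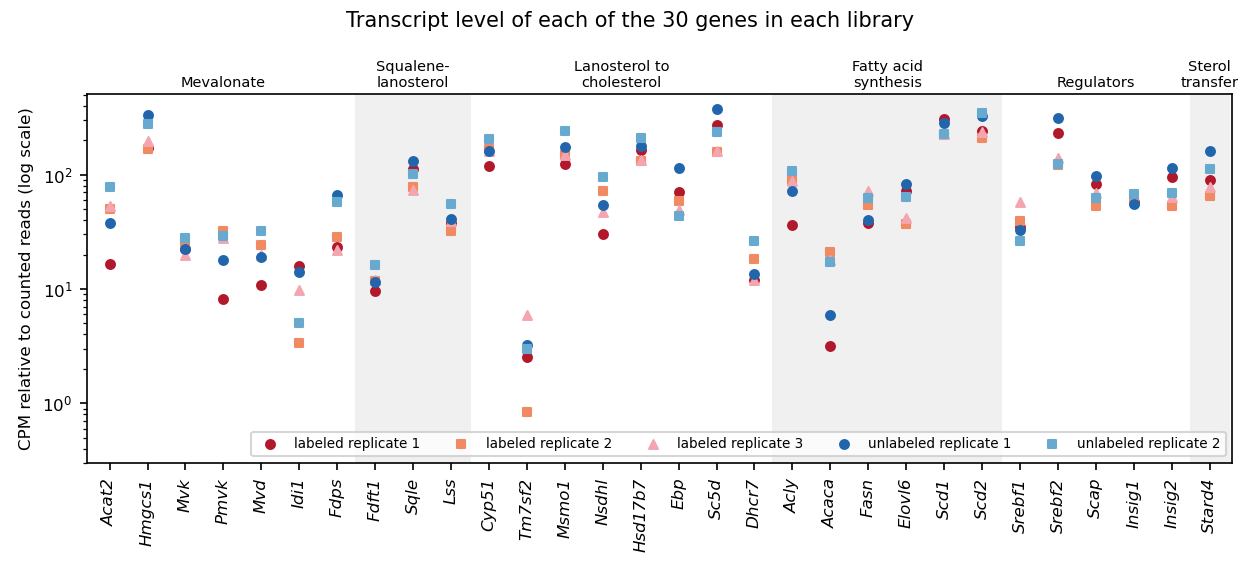
Level of each of the 30 genes in each of the 5 libraries, as CPM relative to the reads counted on 1 interval per gene, on a log axis, with genes ordered by their step in the pathway. Each point is 1 library, labeled in red tones and unlabeled in blue tones, and the levels run from 0.837 CPM for *Tm7sf2* in labeled replicate 2 to 374 CPM for *Sc5d* in unlabeled replicate 1.

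S4U labeling asks how much of each transcript pool was made during the 12 h. The T>C conversion rate was raised in 29 of the 30 genes over the unlabeled libraries at an adjusted p below 0.05 (beta-binomial test), and the same held for 95% of the 11179 genes tested, so the 29 are near the background of the whole transcriptome. The adjusted p of the 29 lay between 6.37e-06 for *Sc5d* and 0.00448 for *Idi1*. In *Tm7sf2* the rate was not shown to be raised, with 0 of 60, 2 of 23 and 0 of 48 covered Ts converted in the labeled libraries and an adjusted p of 0.245 (beta-binomial test). Every labeled library was above both unlabeled libraries in 29 of the 30 genes, against 90.4% of all genes tested. In the unlabeled libraries, 11 of the 30 genes showed no conversion in either library, and the highest rate of any of the 30 was 0.00484 for *Srebf2* in unlabeled replicate 1. For *Scd2* in unlabeled replicate 1, 0 of 12135 covered Ts were converted, which allows a rate of up to 0.000247.

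Rates were ranked for the 21 genes with at least 200 covered Ts in every labeled library. *Lss*, with 286 covered Ts in its shallowest labeled library, was just inside this limit, and *Pmvk*, with 156, was just outside. The other 8 genes outside were *Tm7sf2*, *Acaca*, *Idi1*, *Mvk*, *Fdps*, *Fdft1*, *Dhcr7* and *Mvd*. The median rate of the 21 genes was 0.0398, near the median of 0.0386 of all 6735 genes covered as deeply (quartiles 0.0341 and 0.0424), and 12 of the 21 lay above the latter median. Enzymes reached a median of 0.0413 (15 genes) and regulators one of 0.0378 (5 genes), and 10 of the 15 enzymes but 1 of the 5 regulators were above the median of all genes. The regulator *Insig2*, at 0.03858, lay just below that median of 0.03860. The medians of enzymes and regulators differed by 0.00353. This difference was 0.00124 with a limit of 1 covered T and 0.00168 without labeled replicate 2.

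The order of enzymes and regulators was not the same in every library. The median rates of enzymes were 0.0383, 0.0419 and 0.0403 in labeled replicates 1, 2 and 3, and those of regulators were 0.0397, 0.0351 and 0.0346. Enzymes were thus above regulators in labeled replicates 2 and 3 and below them in labeled replicate 1. The order also turned when the share of reads with at least 1 conversion was used in place of the rate, as medians of 0.528 for enzymes and 0.552 for regulators.

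**Figure D2:**
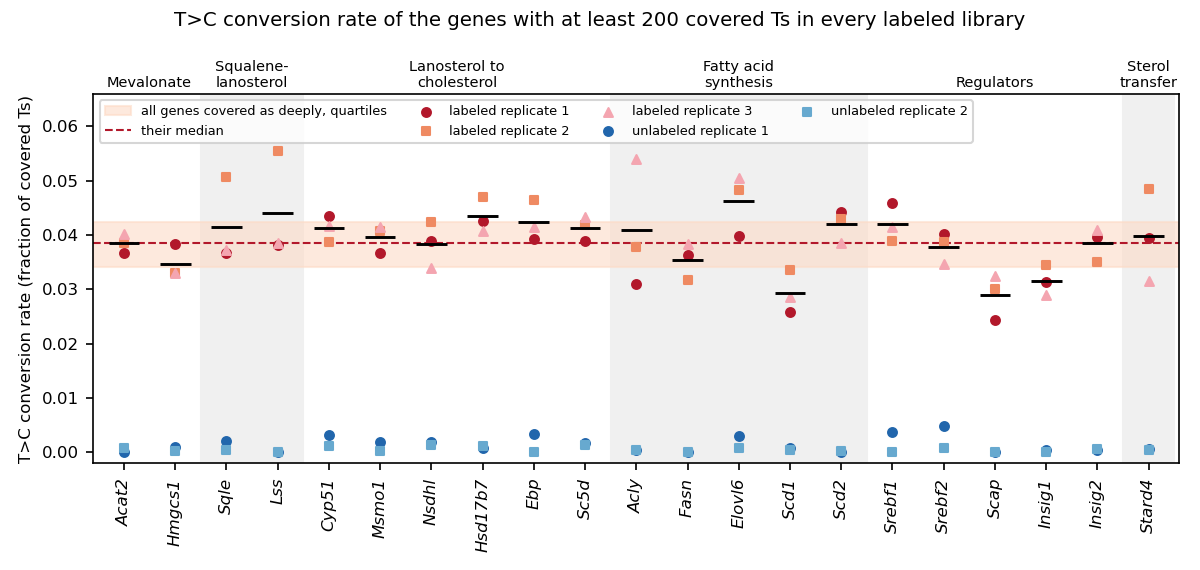
T>C conversion rate of the 21 genes with at least 200 covered Ts in every labeled library, as a fraction of covered Ts. Points are libraries, black bars are means of the 3 labeled libraries, and the band and dashed line are the quartiles (0.0341 and 0.0424) and median (0.0386) of all genes covered as deeply. All labeled points lie above all unlabeled points, and *Scap* and *Scd1* have the lowest means.

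The fatty acid elongase *Elovl6*, which extends palmitate to stearate (ENSMUSG00000041220.12, chr3:129427140-129432144, plus strand), had the highest rate of the 21 genes, 0.0398, 0.0483 and 0.0505 in the labeled libraries. Behind the last value stood 22 conversions in 436 covered Ts, with a 95% Wilson interval from 0.0336 to 0.0752 for counting error only. *Lss* (ENSMUSG00000033105.14, chr10:76388903-76392973, plus strand) followed with 0.0382, 0.0555 and 0.0385. For *Lss* only labeled replicate 2 was high, and the other 2 libraries lay close to the median of all genes.

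*Hsd17b7*, a 3-keto reductase of the sterol ring (ENSMUSG00000026675.14, chr1:169777104-169780601, minus strand), had rates of 0.0426, 0.0470 and 0.0408. The sterol isomerase *Ebp* (ENSMUSG00000031168.16, chrX:8051568-8051848, minus strand) had 0.0392, 0.0464 and 0.0414, and *Srebf1* had 0.0459, 0.0389 and 0.0415. The 5 genes with the highest mean rates, from 0.0462 ± 0.00565 for *Elovl6* to 0.0421 ± 0.00355 for *Srebf1*, overlapped in their libraries.

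At the low end stood *Scap* and *Scd1*, both with all 3 labeled libraries below the lower quartile of all genes. The rates of *Scap* (ENSMUSG00000032485.16, chr9:110213870-110214017, plus strand) were 0.0244, 0.0300 and 0.0324, and those of *Scd1* were 0.0259, 0.0335 and 0.0286. No labeled library of either gene reached the lowest labeled library of *Elovl6*. *Insig1* followed with 0.0314, 0.0345 and 0.0289, *Hmgcs1* with 0.0383, 0.0329 and 0.0330, and *Fasn* (ENSMUSG00000025153.11, chr11:120696784-120698679, minus strand) with 0.0363, 0.0318 and 0.0383. The low rates thus fell on genes of different roles, 1 SREBP escort, 1 INSIG, 1 mevalonate enzyme and 2 fatty acid enzymes, and for *Scap* on an interval of 148 bases that overlaps *Ptpn23* on the other strand.

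The rates of 3 pairs of related genes were set side by side. *Scd2* was above *Scd1* in 3 of 3 labeled libraries, by 0.0126 ± 0.00499 (SD of the paired differences, n = 3). *Insig2* was above *Insig1* in 3 of 3, by 0.00700 ± 0.00582, though by only 0.000639 in labeled replicate 2. *Srebf1* was above *Srebf2* in 3 of 3, by 0.00428 ± 0.00353, though by only 0.000254 in labeled replicate 2. An exact two-sided paired permutation test gave p = 0.25 for each of these 3 pairs, before adjustment, which is the smallest p that 3 libraries allow. For *Scd1* and *Scd2* the libraries did not overlap, at 0.0335 for the highest of *Scd1* and 0.0386 for the lowest of *Scd2*. By the share of reads with a conversion, *Scd2* was again above *Scd1*, with 52.8%, 60.2% and 59.2% against 34.2%, 45.5% and 40.9%. By that measure *Insig2*, with 53.0%, 57.8% and 62.5%, was not above *Insig1*, with 56.7%, 59.7% and 56.7%, in every library. Nor was *Srebf1* above *Srebf2* in every library, with 56.4% against 56.5% in labeled replicate 1.

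Across the 21 genes the mean rate went little with other measures, which come from the same libraries. Spearman's rho was -0.17 with the level, 0.30 with the length of the interval, -0.073 with its percent of T and -0.18 with the log2 fold change of reads. Genes are not independent replicates, and these values are a description.

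*Srebf1* (ENSMUSG00000020538.17, chr11:60089910-60090747, minus strand, overlapped by *Rai1* on the other strand) had 34.9, 39.3 and 57.3 CPM in the labeled and 32.6 and 26.1 CPM in the unlabeled libraries. Of the 29 genes tested it was the only 1 with every labeled library above both unlabeled libraries, a smaller share than the 8.2% of all genes tested. The difference did not pass the test, with a log2 fold change of 0.63 (SE 0.36, adjusted p = 0.955, edgeR).

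*Srebf2* had a log2 fold change of -0.32 (SE 0.43), and its unlabeled replicate 2, at 122 CPM, lay among the labeled libraries. The rates of *Srebf2* were 0.0402, 0.0387 and 0.0346. *Scap* had 82.5, 53.6 and 69.2 CPM against 96.6 and 62.2 CPM, a log2 fold change of -0.14 (SE 0.32). *Scap* and *Srebf2* were thus each highest in replicate 1 of both groups.

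*Insig1*, itself a target of SREBP (ENSMUSG00000045294.13, chr5:28281819-28283660, plus strand), was the steadiest of the regulators. It had 57.1, 60.3 and 59.3 CPM against 55.3 and 67.3 CPM, a log2 fold change of 0.02 (SE 0.28). *Insig2* (ENSMUSG00000003721.16, chr1:121232082-121233634, minus strand) had 95.8, 53.6 and 63.2 CPM against 115 and 69.3 CPM, a log2 fold change of -0.29 (SE 0.35), and rates of 0.0397, 0.0351 and 0.0409. The groups overlapped for both INSIG genes.

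Comparing reads between labeled and unlabeled CF asks whether 12 h with S4U went with other transcript levels. The summed level of sterol synthesis was lower in the labeled libraries, but no single gene of the 29 tested passed the test, which took the libraries as unpaired. Summed over the 18 sterol enzymes, the level was 1218, 1207 and 1192 CPM in the labeled libraries and 1760 and 1731 CPM in the unlabeled libraries. All 3 labeled libraries were below both unlabeled libraries, with a ratio of means of 0.691, and leaving out any 1 library kept the ratio between 0.685 and 0.697. Genes of high level weigh most in this sum. Without unlabeled replicate 2 the ratio was 0.685, while only 9 of the 17 sterol enzymes tested had a log2 fold change below 0. Without *Hmgcs1*, the ratio was 0.712. On the CPM as deposited, the sums of the groups overlapped and the ratio was 0.533. The deposited CPM divides by more reads than were counted, so its sums also carry the share of reads counted in each library. That share was 506045 of 14616278 reads in labeled replicate 3 and 1576048 of 11942554 in labeled replicate 1.

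The 6 fatty acid enzymes summed to 694, 633 and 682 CPM against 810 and 817 CPM, a ratio of 0.823. The 5 regulators summed to 501, 328 and 387 CPM against 610 and 347 CPM, and here the groups overlapped, with replicate 1 the highest of each group. Over the same libraries the 8 fibroblast markers summed to between 38196 and 42293 CPM in the labeled and between 30988 and 34757 CPM in the unlabeled libraries. The 5 adipocyte markers summed to between 94.9 and 142 CPM against 120 and 247 CPM, nearly all of it *Fabp4* in the labeled libraries. The 5 smooth muscle and pericyte markers summed to between 16.7 and 29.6 CPM in the labeled and to 13.0 and 9.03 CPM in the unlabeled libraries, without overlap. Most of this sum in the labeled libraries was *Cnn1*, at a mean of 15.1 CPM. The macrophage markers summed to between 67.3 and 126 CPM against 66.2 and 135 CPM, the endothelial markers to between 76.8 and 146 CPM against 107 and 164 CPM, and the cardiomyocyte markers to between 2.54 and 6.69 CPM against 1.63 and 7.03 CPM, all with overlap. The part of these markers in the sums was not tested. In bulk RNA, fewer cells of a type and less RNA per cell cannot be told apart.

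**Figure D3:**
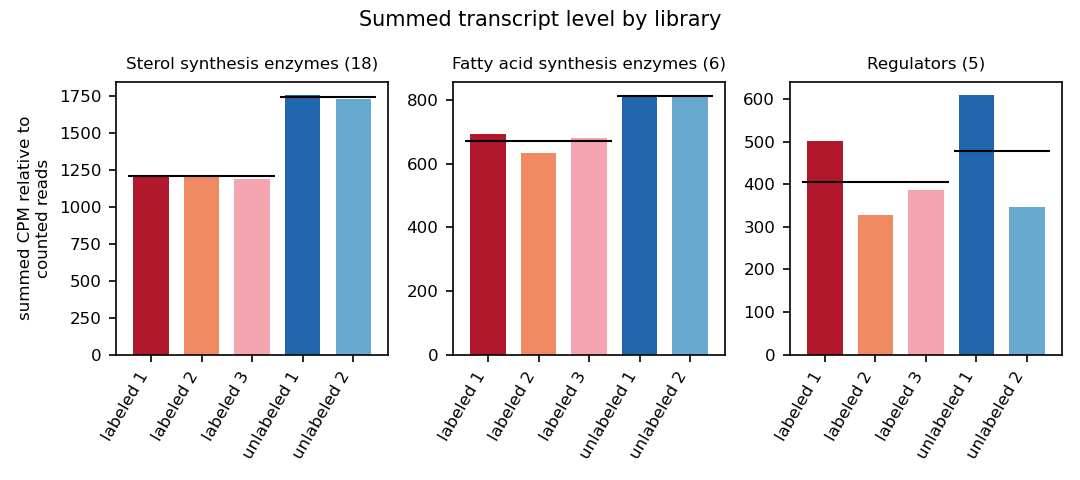
Summed level of the 18 sterol synthesis enzymes, the 6 fatty acid synthesis enzymes and the 5 regulators in each library, in CPM relative to the reads counted on 1 interval per gene. Bars are libraries and black lines are group means. For the sterol enzymes the labeled bars stand at 1192 to 1218 CPM and the unlabeled bars at 1731 and 1760 CPM, whereas the bars of the regulators overlap.

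Gene by gene, 0 of the 29 genes tested passed an adjusted p of 0.05 by edgeR's quasi-likelihood test, and 0% of all 9807 genes did. At an unadjusted p below 0.05, 3 of the 29 (*Fdps*, *Stard4* and *Hmgcs1*) were lower and 0 higher in labeled CF, against 3.12% lower and 2.84% higher of all genes tested. DESeq2 called 20 genes over the whole table, 13 higher and 7 lower, none of them in the list. With the replicate number as a block in edgeR, 7 of the 29 genes passed as lower, against 6.3% of all genes tested. That fit left 1 residual degree of freedom, and the labels do not say that a number marks a preparation.

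*Fdps* encodes farnesyl diphosphate synthase, the branch point between sterols and isoprenoids (ENSMUSG00000059743.14, chr3:89000895-89000949, minus strand, an interval of 55 bases). It had 23.5, 28.5 and 21.7 CPM in the labeled and 65.7 and 57.2 CPM in the unlabeled libraries. The groups lay far apart, with a log2 fold change of -1.24 (SE 0.29, adjusted p = 0.542, edgeR). Its T>C rates of 0.0360, 0.0159 and 0.0727 spread widely, on 110 to 377 covered Ts.

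*Stard4* (ENSMUSG00000024378.11), a soluble carrier that moves cholesterol between membranes, had 89.5, 64.4 and 77.1 CPM against 162 and 112 CPM. Its log2 fold change was -0.75 (SE 0.28, adjusted p = 0.767, edgeR) and its T>C rates were 0.0394, 0.0485 and 0.0316. For *Hmgcs1* the log2 fold change was -0.69 (SE 0.23, adjusted p = 0.731, edgeR). In both genes all labeled libraries were below both unlabeled libraries, and the sign stayed negative without any 1 library.

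On the other side of 0, the largest log2 fold changes after that of *Srebf1* were 0.34 (SE 0.86) for *Acaca* and 0.15 (SE 0.40) for *Fasn*. *Acaca* had 3.17, 20.9 and 17.8 CPM against 5.97 and 17.1 CPM, and *Fasn* had 38.1, 54.4 and 71.1 CPM against 40.2 and 62.2 CPM. Both genes had their lowest level of each group in replicate 1, the groups overlapped, and both fold changes turned negative without unlabeled replicate 1.

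In all, 23 of the 29 genes had a log2 fold change below 0, against 48.3% of all genes tested, and their median was -0.31 against 0.02. Of the 17 sterol enzymes tested, 16 were below 0 with a median of -0.36, whereas 3 of 6 fatty acid enzymes (median -0.10) and 3 of 5 regulators (median -0.14) were. These counts leaned on unlabeled replicate 2. Without it, 16 of the 29 genes and 9 of the 17 sterol enzymes were below 0, and the median of the 29 was -0.077. In 7 genes every labeled library was below both unlabeled libraries, against 13.1% of all genes tested, namely *Fdps*, *Hmgcs1*, *Msmo1*, *Hsd17b7*, *Lss*, *Scd2* and *Stard4*. Over all alternatives tried, 11 of the 29 genes kept the sign of their fold change, 10 of them below 0.

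**Figure D4:**
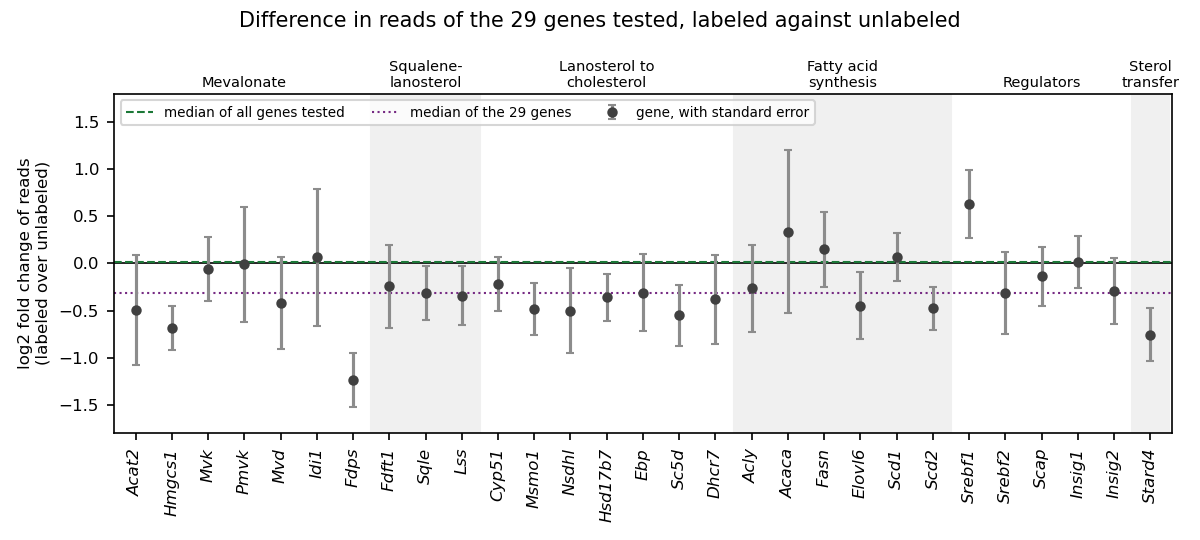
Log2 fold change of reads, labeled over unlabeled, of the 29 genes tested, with standard errors from edgeR. The dashed line is the median of all genes tested (0.02) and the dotted line the median of the 29 genes (-0.31). *Fdps* is lowest at -1.24 and *Srebf1* highest at 0.63, and no gene passed the adjusted p of 0.05 in this unpaired test.

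Other genes of the pathway were looked at by lists. Of 13 further SREBP targets tested among 15, 9 were below 0 (48.3% of all genes tested were) with a median log2 fold change of -0.22, and 2 were lower at an unadjusted p below 0.05 (3.12% of all genes tested), the acyl-CoA ligase *Acsl3* at -0.97 (SE 0.39) and the acyltransferase *Gpam* at -0.76 (SE 0.30). None of the 4 lists held a gene past the adjusted p of 0.05 in the unpaired test. With the replicate number as a block, 7 of the genes tested in these lists (13, 8, 6 and 6) passed, all of them lower. Of all genes tested, 6.3% were then lower and 5.38% higher. The geranylgeranyl diphosphate synthase *Ggps1*, at 190 ± 41.6 CPM, had a log2 fold change of 0.09.

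Of 8 genes of SREBP cleavage and INSIG turnover, 3 were below 0 (median 0.05), against the same 48.3% of all genes. The SREBP protease *Mbtps1* was at 108 ± 8.53 CPM with a log2 fold change of -0.37. Of 6 genes of sterol sensing by LXR and efflux, 4 were below 0 (median -0.15), led in level by *Lpcat3* at 42.9 CPM and *Mylip* at 40.7 CPM.

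Of 6 genes of sterol storage and endosomal export, 4 were below 0 (median -0.26). The lysosomal lipase *Lipa*, at 164 ± 15.7 CPM, had a log2 fold change of -0.50. The lysosomal cholesterol carrier *Npc2* had the highest level of all these genes, 1001 ± 412 CPM, and the lowest T>C rate, 0.00970 ± 0.00155, whereas every one of the 21 genes ranked above was at 0.0289 or more.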

How the data were processed

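CF were compared as 3 labeled and 2 unlabeled libraries, grouped by the labels. The authors extracted unique molecular identifiers with UMI-tools, mapped to mm39 with slamdunk 0.4.3 and removed duplicates after mapping. The deposited counts per 3′ UTR interval are reads, covered Ts and conversions, not normalized. The deposited conversion rate is a fraction, conversions over covered Ts. The deposited CPM divides reads by 10975173 to 14616278 reads per library, more than were counted on the intervals, so levels here are relative to the counted reads.

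Of 97442 rows, 40428 distinct intervals were kept. The T content of 40380 of 40380 intervals on reference chromosomes matched GRCm39, and coordinates are counted from 1. Conversion counts were compared by a two-sided beta-binomial likelihood-ratio test on intervals with 1 covered T or more per library, adjusted (Benjamini-Hochberg) over 19240 intervals, of which 94.5% were called. Reads were compared with edgeR's two-sided quasi-likelihood test (TMM, filterByExpr, Benjamini-Hochberg over 9807 genes). The work used DESeq2 1.42.0, limma 3.58.1 and edgeR 4.0.16 under R 4.3.3, and numba 0.67.0, scipy 1.17.1, pandas 2.3.3, numpy 2.4.6 and matplotlib 3.10.9 under Python 3.11.15. The tests were tested on simulated data.

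The genes and lists were chosen with earlier results of these data known. Values of every library are given for the 5 highest and 5 lowest rates and 5 highest levels among genes with at least 200 covered Ts in every labeled library, the 3 largest and 3 smallest log2 fold changes, the regulators and *Stard4*. Of each further list, the 2 highest genes by level are named, except for 2 genes that are not reported here. *Acsl3* and *Gpam* were named after their values were seen. Floors are 3 conversions, and intervals (Wilson, 95%) and floors cover counting error only. Alternatives were other coverage and count limits, other size factors, DESeq2, limma on log odds with a pseudocount of 0.5, non-overlapping intervals summed, a replicate block and each library left out, where a lone unlabeled library is assumed to vary like the labeled ones. Those on sums, signs and groups that do not overlap were chosen after seeing the data.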

Additional observations from a re-analysis of the deposited data

How the results depend on the processing

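The 29 raised T>C rates kept their call under every alternative that tested them. With a limit of 1000 covered Ts per library, 8 genes remained to be tested and 8 were raised. The median rate of enzymes was 0.0391 with a limit of 1 covered T and 0.0391 to 0.0411 without 1 labeled library, and that of regulators was 0.0350 after subtracting the unlabeled rate. As a share of reads with a conversion, the medians were 0.528 and 0.552, a difference of -0.0242. Median levels as deposited CPM were 3.96 for enzymes and 5.94 for regulators. The summed sterol enzymes gave ratios of 0.729 with TMM-scaled CPM, 0.533 with deposited CPM and 0.712 without *Hmgcs1*. The median log2 fold change was -0.40 with library totals alone, and -0.39 to -0.077 with 1 library left out. With 1 library left out, 9 to 16 of the 17 sterol enzymes were below 0. With 1 labeled library left out, 1 to 5 genes were lower at an unadjusted p below 0.05 (edgeR). No share of all genes is given for these fits, so this count cannot be set against a background. With 1 library left out, 7 to 16 genes had every labeled library below the unlabeled ones, while 16.1% to 33.3% of all genes did. With deposited CPM the latter were 12 genes, against 12.1% of all genes. DESeq2 called 20 genes over the whole table. Values on deposited CPM also carry the share of reads counted, which differed between libraries. The cause of the other shifts was not tested.

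The labels give both groups the replicate numbers 1 and 2 without saying that a number marks a preparation. Deviations from the group means over 9807 genes correlated at 0.78 between the replicate 1 libraries and 0.63 between the replicate 2 libraries, and labeled replicate 3 went with unlabeled replicate 2 at 0.47. With 2 unlabeled libraries these deviations mirror each other. With the replicate number as a block, which left 1 residual degree of freedom, edgeR called 1146 genes, 6.3% of all genes tested lower and 5.38% higher. Among the 29 genes 7 were then lower (*Acat2*, *Hmgcs1*, *Fdps*, *Msmo1*, *Sc5d*, *Scd2* and *Stard4*), and 7 genes of the further lists were called. At an unadjusted p below 0.05, 10 of the 29 genes were lower in this fit. The share of all genes at that unadjusted limit is not given, so the 10 cannot be set against a background.

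Depth limits *Tm7sf2*, *Acaca*, *Idi1* and *Mvk*, each with under 100 covered Ts in a labeled library. Of the used intervals, 9 overlap a gene on the other strand, and 18 of the 29 fold changes turned their sign under at least 1 alternative.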

Other observations

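The levels of the 29 genes moved alike between the replicate 1 libraries of both groups. The log2 ratio of labeled replicate 1 over the mean of labeled replicates 2 and 3 had a Spearman's rho of 0.88 and a Pearson's r of 0.83 with the log2 ratio of unlabeled replicate 1 over replicate 2, and 23 of the 29 genes had the same sign in both. Over all 9807 genes the values were 0.76 and 0.78. Both ratios were above 0 for *Idi1* (1.15 and 1.33), *Srebf2* (0.82 and 1.34), *Sc5d* (0.75 and 0.68) and *Insig2* (0.70 and 0.72), and below 0 for *Acaca* (-2.29 and -1.37), *Pmvk* (-1.73 and -0.67), *Acat2* (-1.59 and -1.02) and *Acly* (-1.27 and -0.55). Genes are not independent replicates, and the libraries of a group share no stated order.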
